A study of Mus musculus with 25 samples.

Results

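The genes described here are 8 genes whose messenger RNA stood at a low level in some mice and at a separate high level in the others, with no mouse in between. They are Rpl34, Ppp1r1a, Myl1, Chchd2, Kbtbd12, Vcp, Prdx1 and Rpl37, 8 of the 8829 genes measured, and they were chosen by their measured values in these same mice. The levels themselves are therefore given as a description, without a test. Gastrocnemius muscle was taken from male SAMP8 mice, an inbred line that ages early, which were 8 months old when oral dosing by gavage began. One group of 11 mice received vehicle (corn oil, called control) and one of 14 mice received thymol, a phenolic monoterpenoid of oregano and thyme, at 20 mg per kg on each dosing day for 3 months, with some days of each week left free. Each mouse had its own library, made by QuantSeq, which reads the 3′ ends of polyadenylated transcripts, and no engineered allele is named for any mouse. The question was whether the same mice were high for several of these genes or whether each gene had its own pattern, and whether either followed thymol.

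The 8 genes act in different parts of the muscle cell. Rpl34 and Rpl37 encode proteins of the large subunit of the cytosolic ribosome. Ppp1r1a encodes inhibitor 1 of protein phosphatase 1, which is switched on by protein kinase A. Myl1 encodes the essential light chains of fast skeletal myosin, and Kbtbd12 encodes a protein with BTB and kelch domains, a family that includes adaptors of cullin 3 ubiquitin ligases. Chchd2 encodes a protein with paired cysteine motifs found mainly in mitochondria. Vcp encodes an AAA ATPase that pulls ubiquitinated proteins out of complexes and membranes, and Prdx1 encodes a cytosolic peroxiredoxin that reduces hydrogen peroxide.

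Values are log2 CPM, log2 counts scaled to a common library size after a small offset in reads was added, and the reads behind each value were recovered from the deposited numbers. Libraries held 4463818 to 9463418 reads on the genes of the table, with a median of 7503259. All 10 markers of skeletal muscle looked for (among them Ckm, Acta1 and Myh4) were in the table, and their summed level was 110900 to 153402 CPM over the mice. In these bulk samples, fewer cells of a type and less RNA per cell cannot be told apart. Nothing in the sources used here says that the mice of a group came from separate litters, so p-values measure the spread between these mice.

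A gene was called at 2 levels where the best split of its 25 values held at least 85% of their variance and the means of the levels lay at least 0.5 log2 apart. All 8 genes met this rule, as did 15 of the 8829 genes in all (0.17%), and the count of the 8 says nothing beyond their choice. Over all genes, the best split held a median of 67.1% of the variance. The smallest difference of levels among the 8 genes was the 1.21 log2 of Prdx1, and of the 222 other genes whose best split was at least that wide, 1 met the rule. Just inside the limit lay Mpv17 at 85.1%, Ggact at 85.8% and Tinf2 at 86.0%, and of the 8 genes Rpl37 was nearest to it at 86.1%. Just outside lay Misp3 at 84.9% and Gas5 at 84.8%, both named after their values were seen.

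**Figure D1:**
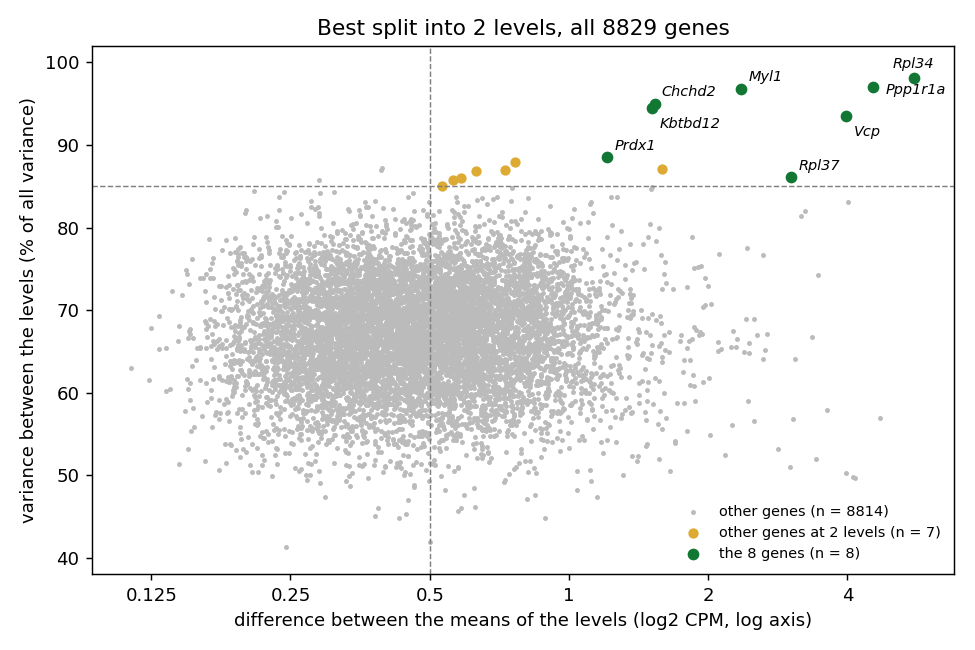
Difference between the means of the low and high levels (log2 CPM, log axis) against the share of variance between the levels (%), for the best split of each gene over 25 mice. Dashed lines mark 85% and 0.5 log2; the 8 genes (green) lie at 86.1% to 98.1%, with 7 other genes (gold) above both lines.

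Rpl34 had the widest separation. In 12 mice its level was -0.12 to 1.49 log2 CPM (median 1.05), which is 5 to 18 reads, and in 13 mice it was 6.14 to 7.27 (median 6.37), which is 475 to 1094 reads. The median level in CPM was 45.7-fold higher in the high mice, and the empty gap of 4.65 log2 was 8.51 times the widest gap within a level. Rpl37, the other ribosomal protein gene, was low in 5 mice, at 0.48 to 1.74 log2 CPM (median 0.71, 6 to 22 reads). It was high in the other 20, at 3.04 to 4.76 (median 3.92, 44 to 247 reads), a 10.8-fold difference of medians. Its gap of 1.30 log2 was 1.51 times the widest gap within a level, so that Rpl37 had the least clear separation of the 8. The mice low for Rpl37 were control 10, control 19, thymol 3, thymol 22 and thymol 24, and without control 19 its best split held 83.8% of the variance and no longer met the rule. These mice did not follow Rpl34, for which control 10, thymol 3 and thymol 24 were high and control 19 and thymol 22 were low.

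Ppp1r1a, the phosphatase inhibitor, was low in 11 mice at -0.40 to 1.32 log2 CPM (median 0.57, 3 to 16 reads) and high in 14 mice at 4.62 to 5.41 (median 5.003, 174 to 326 reads). The medians differed 26.2-fold in CPM. Vcp, the segregase ATPase, was high in 7 mice only: control 10, control 15, control 18, control 19, control 27, thymol 26 and thymol 34. Those mice had 6.29 to 6.79 log2 CPM (median 6.60, 482 to 889 reads), and the 18 low mice had 1.23 to 3.36 (median 2.80, 16 to 77 reads), a 14.4-fold difference of medians. The low mice of Vcp were spread more widely than the high ones, with SDs of 0.56 and 0.18 log2.

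Myl1, the fast myosin light chain gene, stayed abundant at both levels. It had 10.16 to 10.70 log2 CPM (median 10.47, 6521 to 14420 reads) in 16 mice and 12.43 to 13.37 (median 12.78, 42228 to 82188 reads) in 9, a 4.95-fold difference of medians. The high mice were control 1, control 14, control 19, control 31, thymol 3, thymol 6, thymol 7, thymol 16 and thymol 28. At this depth, counting error was about 0.01 log2 at the low level, against an SD of 0.15 between the low mice and a gap of 1.73 between the levels.

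The remaining genes differed by less between their levels, but with gaps that no mouse filled. Chchd2 was low in 12 mice at 8.59 to 8.91 log2 CPM (median 8.71, 2733 to 4412 reads) and high in 13 at 9.91 to 10.63 (median 10.18, 4897 to 11691 reads), a 2.78-fold difference of medians. Kbtbd12 was low in 6 mice (control 15, control 31, control 32, control 35, thymol 24 and thymol 28) at 4.37 to 4.84 (median 4.53, 149 to 225 reads). The other 19 mice had 5.87 to 6.41 (median 6.04, 329 to 670 reads), 2.86-fold higher by medians. In both genes the range within a level was less than the gap of 1.01 log2 in Chchd2 and 1.03 log2 in Kbtbd12. Prdx1, the peroxiredoxin gene, was low in 9 mice at 5.27 to 5.68 (median 5.49, 220 to 422 reads) and high in 16 at 6.37 to 7.20 (median 6.64, 655 to 1283 reads). Its medians differed 2.22-fold, and its gap of 0.70 log2 was narrower than the 0.82 log2 spanned by its high mice. The smallest gap in terms of fold was thus that of Prdx1, whose lowest high mouse was 1.62-fold above its highest low mouse in CPM.

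**Figure D2:**
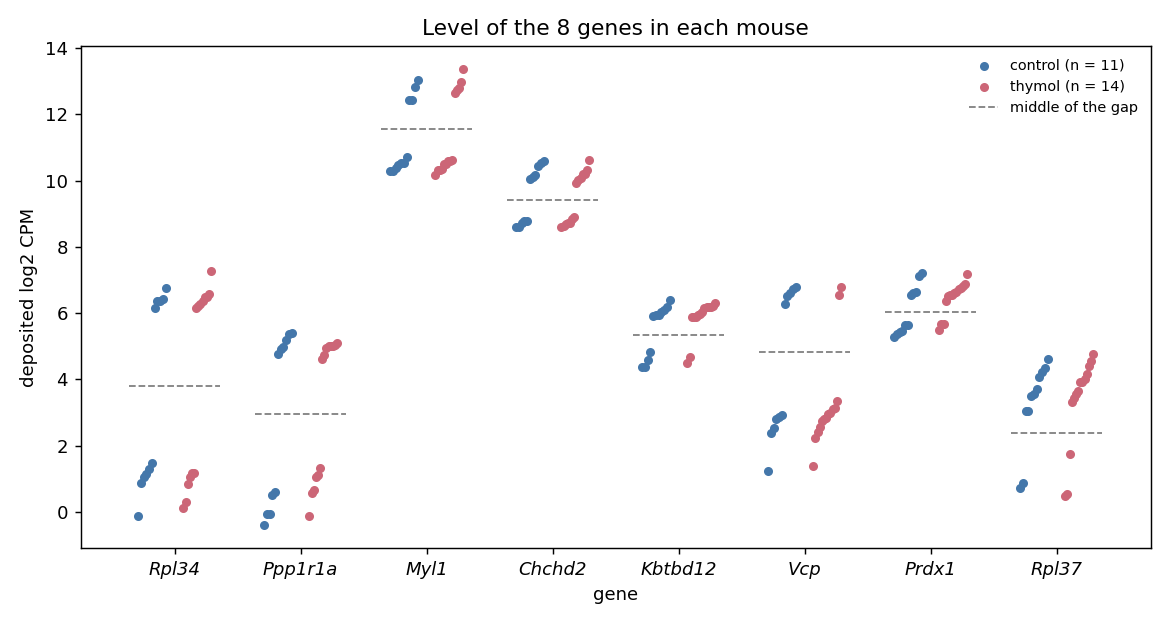
Deposited log2 CPM of the 8 genes in each of 11 control (blue) and 14 thymol (red) mice, 1 point a mouse, sorted within each group, with a dashed line at the middle of the gap between levels. For every gene, both groups have mice above and below the line, from 2 of 14 thymol mice above it for Vcp to 12 of 14 for Kbtbd12.

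The 8 genes divided the mice in different ways. Among the 25 mice there were 22 distinct combinations of 8 calls, and a mouse was high for 1 to 6 of the genes, with a median of 5. Control 32 and control 35 were alike, both high for Rpl37 and low for the other 7 genes. Thymol 9 and control 23 shared all 8 calls, as did thymol 28 and control 31, so that in both cases a thymol mouse matched a control mouse. Thymol 3, thymol 26, thymol 34 and control 10 had the most high calls, 6 each, but in 4 different combinations. Any 2 mice had from 1 to 8 calls in common, with a median of 4. Mice with the same first number in their label (11 pairs) had the same call in 55.7% of comparisons, against 54.4% for the other 289 pairs, and what that number stands for is not given.

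**Figure D3:**
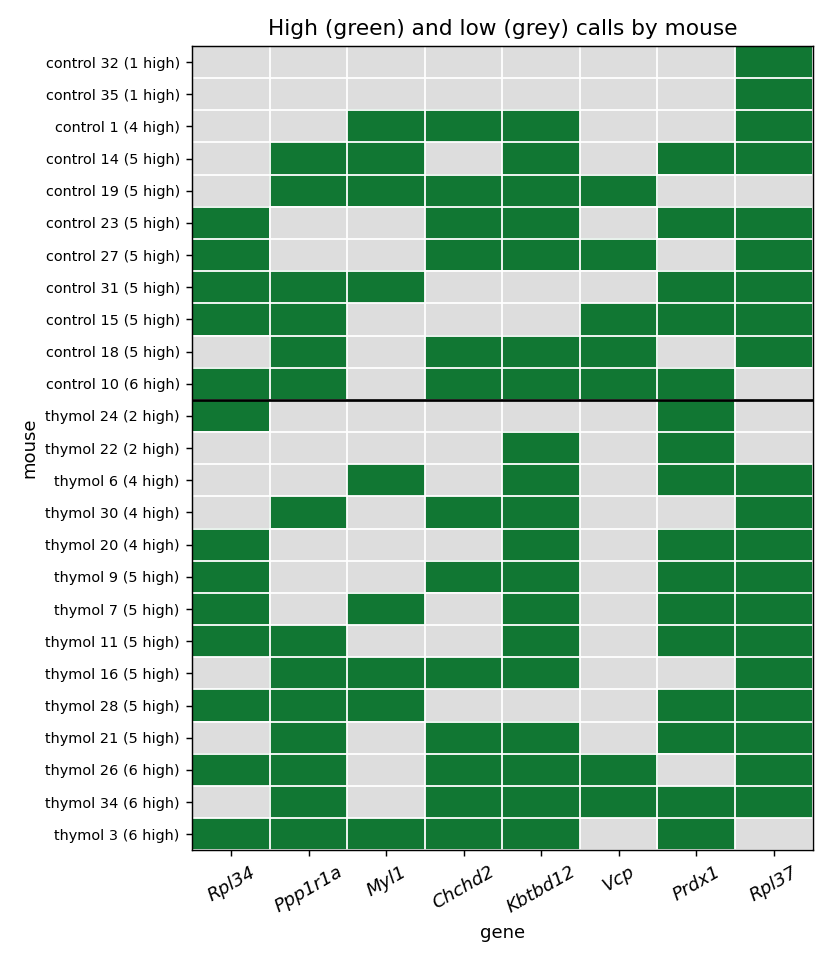
High (green) and low (grey) calls of the 8 genes (columns) in each of 25 mice (rows), with control mice above the black line and thymol mice below it, ordered by the number of high calls. Rows range from 1 high call (control 32 and control 35) to 6, and 22 of the row patterns are distinct.

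Over the 28 pairs of genes, the number of mice with the same call ranged from 8 to 19 of 25, with a median of 12. No pair passed at an adjusted p of 0.05 (Fisher's exact test, two-sided, Benjamini-Hochberg over 28 pairs), and 2 pairs had an unadjusted p under 0.05. Of these, Chchd2 and Kbtbd12 shared the most calls. All 13 mice high for Chchd2 were high for Kbtbd12, 6 mice were high for Kbtbd12 alone and 6 were low for both (Fisher's exact p = 0.00522, adjusted p = 0.146). All 6 mice low for Kbtbd12 were thus low for Chchd2, and no mouse was high for Chchd2 with a low Kbtbd12. Divided by group, 6 control mice were high for both, 1 was high for Kbtbd12 alone and 4 were low for both. In the same order there were 7, 5 and 2 thymol mice. These are the same 25 mice, and the pair was picked for its smallest p, so the division is not a second observation of the pattern. The genes lie on chromosomes 5 and 6.

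The second pair was Rpl34 and Prdx1, both high in 11 mice and both low in 7, with 2 mice high for Rpl34 alone and 5 for Prdx1 alone (Fisher's exact p = 0.0414, adjusted p = 0.542). Its unadjusted p was 0.0825 without control 18 or without control 19 and 0.0894 without thymol 20, which left 1 pair under 0.05, whereas that of Chchd2 and Kbtbd12 was 0.0137, 0.0137 and 0.00343 (Fisher's exact test). The 2 ribosomal protein genes, Rpl34 and Rpl37, had the same call in 12 of 25 mice (Fisher's exact p = 1, adjusted p = 1). Vcp and Prdx1 lie 73.7 Mb apart on chromosome 4 and had the same call in 8 mice (adjusted p = 0.951, Fisher's exact test). Ppp1r1a and Rpl37 lie 98.4 Mb apart on chromosome 15 and had the same call in 13 mice (adjusted p = 1, Fisher's exact test). Pearson's r of the log2 values over the 25 mice, given as a description, ranged from -0.35 for Myl1 and Vcp to 0.55 for Chchd2 and Kbtbd12, with a median absolute value of 0.155. With 25 mice and levels as unequal as 5 against 20, a p that misses the threshold does not show that calls are independent.

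**Figure D4:**
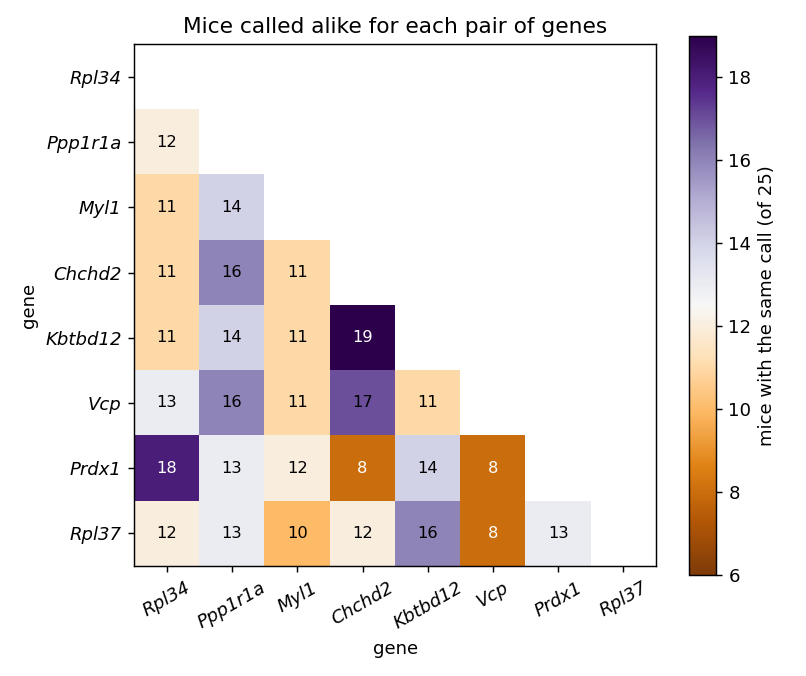
Number of the 25 mice with the same call (both high or both low) for each of the 28 pairs of the 8 genes. Counts run from 8 (orange) to 19 (purple, Chchd2 and Kbtbd12), and 22 of the pairs lie between 10 and 16.

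Thymol was compared with control in counts of high mice and in mean level. Rpl34 was high in 5 of 11 control and 8 of 14 thymol mice, Ppp1r1a in 6 and 8, Myl1 in 4 and 5, Chchd2 in 6 and 7 and Rpl37 in 9 and 11. Kbtbd12 was high in 7 control mice (63.6%) and 12 thymol mice (85.7%). For Prdx1 the numbers were 5 (45.5%) and 11 (78.6%), and for Vcp 5 (45.5%) and 2 (14.3%). None of the 8 genes passed (Fisher's exact test, two-sided, Benjamini-Hochberg over 8), adjusted or unadjusted, and the smallest p were 0.115 for Prdx1 and 0.177 for Vcp (adjusted p = 0.71 for both, Fisher's exact test).

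In the limma fit of all genes, 0 of the 8 genes passed at an adjusted p of 0.05, and 0 of all 8829 genes did (0%). At an unadjusted p under 0.05, 0 of the 8 genes and 312 of all genes (3.53%) were called, and the smallest adjusted p of any gene was 0.741. Voom on the recovered reads also called 0 genes, with 304 at an unadjusted p under 0.05. Mean Vcp was 4.33 ± 2.20 log2 CPM in control (SD, n = 11) and 3.28 ± 1.51 in thymol mice (SD, n = 14), a log2 difference of -1.06 with a standard error of 0.65. Prdx1 was 6.09 ± 0.74 and 6.46 ± 0.50, a difference of 0.37 with a standard error of 0.22, and Kbtbd12 was 5.52 ± 0.79 and 5.86 ± 0.56, a difference of 0.34 with a standard error of 0.24. The adjusted p was 0.9999 for each of the 8 genes (limma, Benjamini-Hochberg over 8829 genes). For genes at 2 levels, such a mean reflects how many mice stand at each level, and its SD is set by the gap. For Rpl34 the difference was 0.61 log2 with a standard error of 1.03, and for Ppp1r1a it was 0.31 with a standard error of 0.84. Differences smaller than their standard errors, as these were, could not have been detected.

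For each gene, the position on GRCm38 was taken from GENCODE M21. Rpl34 lies on chromosome 3 (130726831 to 130730398, minus strand), Ppp1r1a on chromosome 15 (103530279 to 103538003, minus), Myl1 on chromosome 1 (66924295 to 66945404, minus) and Chchd2 on chromosome 5 (129881156 to 129887470, minus). Kbtbd12 lies on chromosome 6 (88545114 to 88637950, minus), Vcp on chromosome 4 (42979963 to 43000507, minus), Prdx1 on chromosome 4 (116685544 to 116700822, plus) and Rpl37 on chromosome 15 (5116645 to 5119140, plus). Chchd2 overlaps Phkg1 on the same strand, Vcp overlaps 1700022I11Rik on the other strand, and the snoRNA gene Snord72 lies within Rpl37. The strand setting of the counting is not given in the sources used here, so whether reads of Vcp and 1700022I11Rik were kept apart is not known. Phkg1 and Snord72 lie on the same strand as Chchd2 and Rpl37, so the strand of a read does not separate them where they overlap. The overlaps are of whole gene spans, and whether exons or 3′ ends overlap was not examined.

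Of the 8 genes, 6 share transcript sequence with other loci, among them processed pseudogenes, which are copies of a spliced transcript inserted elsewhere in the genome. Pseudogenes made up all of the sharing loci for Rpl34 (15), Rpl37 (9), Myl1 (1) and Vcp (1), 8 of 9 for Chchd2 and 4 of 47 for Prdx1. The share of 31-base words of the transcripts also found in another gene was 64.7% for Vcp, 53.8% for Chchd2, 35.3% for Rpl37, 19.5% for Myl1, 14.95% for Prdx1 and 14.5% for Rpl34, and it was 0% for Ppp1r1a and Kbtbd12. Of these loci, 19 sharing with Prdx1 were genes of the table, each holding at most 0.0742% of its words, and none of those sharing with the other 5 genes was in the table. The last 400 bases of all annotated protein-coding transcripts of a gene were pooled, since the 3′ end in use is not known from these values. Over these bases, at least 10% of words were shared for Rpl34, Myl1, Chchd2 and Prdx1. These are 4 of the 8 genes, against 8.87% of 8522 genes of the table. For Vcp and Rpl37 the share over these bases was 0%, so that the words they share lie farther from the annotated 3′ ends. Where the reads fell was not tested. Chchd2 shared 42.3% of its words with Zbed5, a neighbouring gene on the opposite strand, and 34.7% with Gm12350. Whether reads of these copies entered the counts, or reads of the genes were left out because they match a copy, was not tested. The part of either in the levels was not tested.

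The last 90 coding bases before the stop codon are shown for 5 genes. Each was compared with the single-exon pseudogene copy that differed least in this stretch among those searched, so the closeness here comes from that choice. Over all transcript words, Gm10154 held 11.7% of those of Rpl34, Gm21399 11.1% of Prdx1, Gm12350 34.7% of Chchd2, Rpl37rt 35.3% of Rpl37 and Vcp-rs 64.7% of Vcp. For Myl1 no single-exon copy was near enough in this stretch to be shown. They were read from GRCm38 on the strand of the gene, 5′ to 3′, with bases that differ between gene and copy in capitals. Where a stretch crosses exon boundaries, the coordinates span the introns, which are not printed.
Rpl34 (chr3:130726878-130728755, minus): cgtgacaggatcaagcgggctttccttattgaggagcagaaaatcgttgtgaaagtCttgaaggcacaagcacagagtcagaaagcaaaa
Gm10154 (chr4:83505188-83505277, minus): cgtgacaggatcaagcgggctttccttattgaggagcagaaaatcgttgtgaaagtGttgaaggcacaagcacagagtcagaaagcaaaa
Rpl37 (chr15:5117681-5118633, plus): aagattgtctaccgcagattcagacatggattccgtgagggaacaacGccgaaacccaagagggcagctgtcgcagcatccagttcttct
Rpl37rt (chr5:115103231-115103320, minus): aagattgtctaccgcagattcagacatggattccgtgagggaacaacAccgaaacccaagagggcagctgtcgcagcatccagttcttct
Prdx1 (chr4:116693841-116699253, plus): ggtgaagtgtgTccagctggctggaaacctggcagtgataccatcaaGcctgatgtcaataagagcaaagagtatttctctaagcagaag
Gm21399 (chr8:129253505-129253594, plus): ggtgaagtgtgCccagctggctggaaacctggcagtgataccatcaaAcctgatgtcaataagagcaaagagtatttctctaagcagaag
Chchd2 (chr5:129881389-129882510, minus): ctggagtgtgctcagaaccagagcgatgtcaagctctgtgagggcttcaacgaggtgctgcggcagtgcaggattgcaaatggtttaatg
Vcp (chr4:42980532-42980621, minus): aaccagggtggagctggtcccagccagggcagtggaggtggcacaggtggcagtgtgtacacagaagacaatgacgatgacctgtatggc

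Rpl34 and Rpl37 differed from these copies at 1 of 90 bases each and Prdx1 at 2. The Chchd2 stretch was found unchanged in Gm12350 (chr4:34486201-34486290, plus) and the Vcp stretch in Vcp-rs (chrX:104345832-104345921, minus), with 0 differences in each. Ppp1r1a and Kbtbd12 shared no 31-base word with any other annotated gene.

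The genes whose levels ran most like those of each gene were ranked by the absolute value of Pearson's r over the 25 mice, as a description of likeness. For Rpl34 they were Plpp3 (r = -0.76), Lgr4 (0.70) and Btrc (0.67), and for Rpl37 they were Prex1 (0.77), Oxct1 (0.74) and Eps15 (0.74). For Ppp1r1a they were Zfp251 (-0.74), Ipo11 (-0.70) and Amhr2 (0.70), of which Zfp251 and Amhr2 lie on its own chromosome, 26.7 Mb and 1.08 Mb away. For Myl1 they were Lancl1 (0.83), Nfil3 (0.67) and Ncapd2 (-0.66). Lancl1, which encodes a glutathione-binding protein related to bacterial lanthionine synthetases, is the next gene of the table on one side of Myl1, 55.1 kb away, and 0.83 was the largest absolute r for any of the 8 genes. Its best split held 66.8% of its variance, close to the median of all genes, so Lancl1 was not itself at 2 levels.

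For Chchd2 the nearest in likeness were Pld5 (0.74), Polr1a (-0.74) and Cc2d1b (0.69), and for Kbtbd12 they were Ptpn2 (0.71), Mndal (0.70) and Dennd5b (-0.69), with a Spearman's rho of 0.33 for Mndal. For Vcp they were Adck1 (-0.70), Rpa2 (0.70) and Hint2 (0.69), and Hint2 lies 0.654 Mb from Vcp. For Prdx1 they were Tcea3 (-0.78), Nfia (-0.78) and Nexn (-0.75), of which Tcea3 and Nfia lie 19.5 Mb and 18.6 Mb away on chromosome 4. None of the other 7 genes was among the 3 closest to any of the 8. These r over 25 mice are the largest picked from 8829 genes. The largest r of genes other than the 8 was not examined, so these values alone set none of them apart.

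Of the 160 genes that made up the 20 most like each gene, 31 lay on the chromosome of the gene itself, whose share of all placed genes was 3.95% to 6.32%, and 15 lay within 5 Mb. An absolute r of at least 0.5 was found for 30 of 322 table genes within 5 Mb of one of the 8 genes (9.32%), for 1.99% of genes farther along the same chromosome and for 1.27% of genes on other chromosomes. The share within 5 Mb was 37.5% for Rpl37 (6 of 16 genes), 18.2% for Chchd2 (6 of 33), 12% for Prdx1 (6 of 50), 11.1% for Myl1 (2 of 18) and 10.2% for Vcp (6 of 59). It was 4.92% for Ppp1r1a (3 of 61), 4.55% for Rpl34 (1 of 22) and 0% for Kbtbd12 (0 of 63). These genes share libraries and are not independent, and no test was made. The nearest table genes on each side differed in the size and sign of r. Oxct1, 961 kb from Rpl37, had an r of 0.74, and Prkaa1 on its other side had -0.24. Phkg1, which overlaps Chchd2, had -0.46. Vkorc1l1, on the other side of Chchd2, had -0.36, and Acadl, on the other side of Myl1 from Lancl1, had -0.10. Close by but not nearest, Cct6a, 0.0348 Mb from Chchd2, had -0.67, and Ttc33, 0.084 Mb from Rpl37 between midpoints, had -0.58. For Rpl34 (Ostc and Hadh), Ppp1r1a (Zfp385a), Kbtbd12 (Sec61a1 and Mgll), Vcp (Dnajb5 and Pigo) and Prdx1 (Akr1a1 and Mmachc), the r with the nearest genes lay between -0.20 for Akr1a1 and 0.27 for Mmachc.

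**Figure D5:**
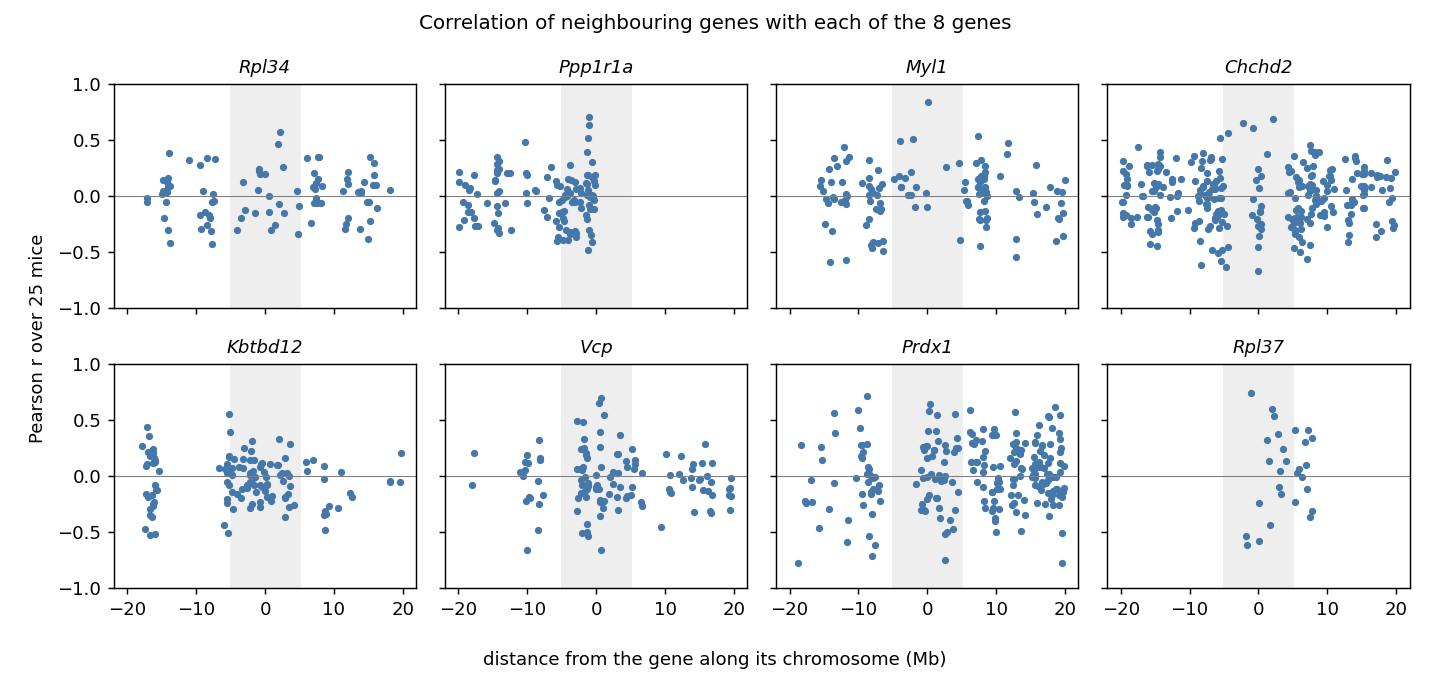
Pearson's r over 25 mice between each of the 8 genes (1 panel each) and the other table genes within 20 Mb of it, against their distance along the chromosome (Mb), 1 point a gene, with the 5 Mb on each side shaded. Absolute r of at least 0.5 is found for 30 of 322 genes in the shaded windows, for example Lancl1 beside Myl1 at 0.83, and for no gene in the shaded window of Kbtbd12.

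Genes that work with the 8 genes were examined in 7 lists, which held 226 other genes of the table. One of them, the ribosomal stalk gene Rplp1, was itself at 2 levels, with 14 mice at 6.92 to 7.66 log2 CPM and 11 at 8.00 to 8.19. The list named 83 cytosolic ribosomal protein genes, of which 43 other than the 8 genes were in the table, Rplp1 among them. Why listed genes were absent was not tested. The median absolute r of the 43 was 0.119 with Rpl34, against 0.153 for all genes, and 0.182 with Rpl37, against 0.142. None of 30 sarcomere genes was at 2 levels, and Mylpf, the regulatory light chain that binds the same myosin heads as the product of Myl1, had an r of -0.16 with Myl1. Likewise 0 of 35 VCP cofactor genes, 0 of 30 genes of protein phosphatase 1 and protein kinase A, 0 of 35 CHCHD and cristae genes, 0 of 26 BTB-kelch and cullin 3 genes and 0 of 27 peroxiredoxin and thioredoxin genes were at 2 levels. Of all 8829 genes, only 15 (0.17%) met the rule, so these counts do not set the lists apart from other genes. The closest in these lists were Prkaca with Ppp1r1a (-0.39), Sqstm1 with Vcp (0.35), Gclm with Prdx1 (0.46), Klhl7 with Kbtbd12 (-0.45), Immt with Chchd2 (-0.42) and Myh8 with Myl1 (0.35).

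Between thymol and control, 0 of these 226 genes passed at an adjusted p of 0.05 (limma). At an unadjusted p under 0.05 there were 6 higher and 3 lower in thymol mice. Of all 8829 genes, 312 (3.53%) were called at that threshold, so the count does not set the lists apart. The smallest p were those of Rpl27a, with a log2 difference of 0.24 (standard error 0.08), and of Ppp1r15a, the stress-induced regulatory subunit of protein phosphatase 1, with -0.40 (standard error 0.14), both with an adjusted p of 0.9999. Outside these lists, the other genes at 2 levels were Cox5b, Bgn, Gzf1, Tinf2, Ggact and Mpv17. Cox5b, a subunit of cytochrome c oxidase, had 3 high mice (thymol 16, control 19 and control 15) at 6.53 to 7.01 log2 CPM and 22 low ones at 4.91 to 5.61. The rest differed by 0.53 to 0.77 log2 between levels, less than any of the 8 genes.

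Depth, library number and markers of other cell types were set beside the 8 genes. Over the 25 mice, the r with depth ranged from -0.40 for Kbtbd12 to 0.13 for Prdx1, and that with library number from -0.36 for Myl1 to 0.23 for Vcp. Of all marker sums, the largest r was 0.55 between Rpl34 and the 10 skeletal muscle markers, with 122932 to 153402 CPM in mice high for Rpl34 and 110900 to 139740 in mice low for it. Next were -0.53 between Prdx1 and 5 Schwann and nerve markers (69.8 to 155 CPM in high and 78.02 to 254 in low mice) and -0.48 between Rpl34 and 9 slow-fibre markers (97.0 to 7954 and 1152 to 10077 CPM). In each case the ranges of the high and low mice overlapped. The defining markers Prx, Mag and Sox10 of Schwann cells, Ptprc of leukocytes and Lep of adipocytes were not in the table. The part of these markers in the levels was not tested.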

How the data were processed

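Gastrocnemius RNA of 25 mice was measured, with 1 library a mouse. The authors made the QuantSeq libraries from 3′ ends, mapped and counted the reads (STAR 2.5.3 and HTSeq 0.6.1, per the submitters' processing notes, on GRCm38), removed low genes and scaled the libraries, and they deposited log2 CPM for 8829 gene symbols. The values fit an offset of 2 reads per library of average size, so that 0 reads stand at -1.90. The reads behind the values were recovered from the steps between them, and 100% came out whole (within 0.05 reads). They carry no molecular identifiers, so they describe counting error only. The authors tested counts with edgeR. Here the deposited log2 values were tested with limma 3.58.1 (R 4.3.3, treatment as the only term, trend, two-sided, Benjamini-Hochberg over all genes, threshold 0.05), because the file holds no counts, with voom as an alternative.

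Groups follow the labelled treatment, and each mouse has the last number of its label. Each gene's 25 values were split where the variance within the levels was least, with at least 2 mice in each level. Calls were compared between genes and between treatments with Fisher's exact test (scipy 1.17.1). Positions and sequences are from GENCODE M21 and GRCm38, and 8751 of 8829 symbols were placed, the few that GENCODE did not name by RefSeq. Procedures were tested on simulated data. The 8 genes and the lists were chosen with earlier results of these data known. The genes named are the 8, the 3 with the largest absolute r and the nearest table genes for each, genes of the lists at 2 levels or, for treatment, with the smallest p, and other genes at 2 levels. Genes named for the largest r in a list, and Cct6a and Ttc33, were picked with their values known.

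The alternatives were splits at the widest gap or the midpoint, at least 3 mice a level, median centring, quantile normalization, 0.5 read added, and control 18, control 19 or thymol 20 left out. For treatment they were also the 75% of genes with the highest mean, no trend, robust moderation, the first label number as a block and library number as a covariate.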

Additional observations from a re-analysis of the deposited data

How the results depend on the processing

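All 8 genes stayed at 2 levels in 8 of the 9 alternatives tried for the levels, and without control 19 there were 7, since Rpl37 no longer met the rule. Leaving out control 18, control 19 or thymol 20 gave 7 to 8 genes. No call of any mouse changed in any of the 9. Of the whole table, 14 to 17 genes were at 2 levels, against 15. No pair of genes passed at an adjusted p of 0.05 in any of them, with 1 to 2 pairs at an unadjusted p, and the adjusted p of Chchd2 and Kbtbd12 ranged from 0.0961 to 0.384 (Fisher's exact test). No gene differed by treatment in its calls, and limma called 0 genes in all 12 alternatives, with 233 to 335 at an unadjusted p under 0.05. The log2 difference between thymol and control changed sign for Myl1 without control 18 (-0.046) and for Rpl37 without control 19 (-0.16) or thymol 20 (-0.03), none of them past the threshold. Over the libraries left out, it ranged from -0.046 to 0.23 for Myl1 and from -0.16 to 0.057 for Rpl37. The first label number as a block had a correlation of -0.04 and gave 296 genes at an unadjusted p under 0.05. Reads were few at the low levels of Rpl34, Ppp1r1a and Rpl37 (3 to 22 reads a mouse), where counting error limits what can be read within a level. The other libraries were not left out in turn.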
